A study of Mus musculus with 6 samples.

Results

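Retinal ganglion cell genes were measured in newborn (postnatal day 0) mouse retinae without Meg2, a protein tyrosine phosphatase encoded by Ptpn9, and in wild-type retinae. The list held 34 genes known from ganglion cells. Each was read from the array probe group (transcript cluster) annotated to that gene alone, taking the brightest where a gene had more than 1. A cluster was found for 33 of the 34 genes, out of 19938 genes with such a cluster. Pou4f2 was not analysed here. The 3 Meg2 knockout and 3 wild-type samples shared the C57BL/6NTac background, and per the labels both retinae of an animal were pooled. The sources used here do not give the knockout allele, the deleted part of the gene or the sex of the pups. Values are normalised log2 signals, so a difference of 1 is a doubling. Signal brightness also depends on the probes of a cluster, so levels of different genes were not ranked.

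Ganglion cells are the output neurons of the retina, and their axons form the optic nerve. They are the earliest neurons to leave the retinal progenitor pool. The proneural factor Atoh7 makes progenitors competent for this fate, POU domain factors of the Brn3 (Pou4f) family and the LIM homeodomain factor Isl1 then drive differentiation, and neurofilaments, tubulin and stathmins build the axon. At birth most ganglion cells have been made and their axons have reached the brain, while rods and amacrine cells are still being added. Several of the genes, among them Isl1, Ebf1, Ebf3, Satb1, the Elavl genes, Stmn2 and Tubb3, are also active in amacrine cells or other young neurons. In a bulk sample, fewer ganglion cells and less RNA per ganglion cell cannot be told apart.

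The regulatory letters in front of 3 of these genes are shown because E-boxes of the form CAGCTG can be bound by basic helix-loop-helix factors such as Atoh7, and the genes cover 2 transcription factors and 1 widely used ganglion cell marker. Sequences are from RefSeq (GRCm38.p6), 5′ to 3′ on the gene's strand, and end at the base before the annotated start. Capitals mark CAGCTG.
Pou4f1: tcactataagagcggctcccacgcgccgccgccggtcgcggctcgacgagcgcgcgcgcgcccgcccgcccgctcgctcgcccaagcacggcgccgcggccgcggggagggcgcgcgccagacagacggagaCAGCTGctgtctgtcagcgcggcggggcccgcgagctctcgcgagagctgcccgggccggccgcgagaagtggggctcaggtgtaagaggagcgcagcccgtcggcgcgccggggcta
Isl1: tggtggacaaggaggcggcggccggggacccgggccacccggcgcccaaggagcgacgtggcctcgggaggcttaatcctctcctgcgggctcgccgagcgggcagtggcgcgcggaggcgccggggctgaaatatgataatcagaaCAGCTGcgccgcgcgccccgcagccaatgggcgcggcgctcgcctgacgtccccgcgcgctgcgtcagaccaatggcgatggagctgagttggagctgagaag
Rbpms2: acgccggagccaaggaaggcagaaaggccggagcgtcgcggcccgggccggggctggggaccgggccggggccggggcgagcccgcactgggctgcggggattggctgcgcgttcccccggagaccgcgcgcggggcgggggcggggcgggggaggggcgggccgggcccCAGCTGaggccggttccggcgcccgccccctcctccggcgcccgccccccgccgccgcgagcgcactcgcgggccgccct
They lie at chr14:104468000-104468249 (minus strand), chr13:116309689-116309938 (minus strand) and chr9:65630332-65630581 (plus strand). The motif began 118, 103 and 80 bases before the start of Pou4f1, Isl1 and Rbpms2. CAGCTG, which reads the same on both strands, stood in the 250 bases before the start of 5 of the 23 ganglion cell genes matched to a promoter (Pou4f1, Isl1, Rbpms2, Elavl3 and Ina), or 21.7%, against 13% of all 32851 promoter windows. The homeodomain core TAATTA stood in 1 (Tbr1), or 4.35%, against 4.84% of all windows. ATTAAT, which can overlap TAATTA and was also searched on both strands, stood in 2 (Tbr1 and Eomes), or 8.7%, against 4.39%. These matches are letters in a window, not sites shown to be bound. The 5 genes with CAGCTG differed between knockout and wild type by -0.019 to 0.034 on the log2 scale, and none of them was called.

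Some properties of the arrays bear on all values below. Ptpn9 read 9.28 to 9.58 on knockout arrays and 9.93 to 10.05 on wild-type arrays (difference -0.58, SE 0.087). Its unadjusted p was 0.000108 and its adjusted p 0.437 (limma). Whether its probes lie in the deleted part is not known here. Array medians were 7.84 to 7.91. Precision is limited by having 3 arrays per genotype. The labels call the samples biological replicates. Arrays of the same replicate number deviated together, with correlations of 0.476, 0.485 and 0.455 for numbers 1, 2 and 3. Both replicate 2 arrays carried Xist signal (12.54 in knockout and 12.55 in wild-type retinae) together with Y-linked Eif2s3y signal (7.66 in knockout and 7.76 in wild-type retinae). Eif2s3y lay lower on the replicate 1 arrays (5.08 in the knockout, 5.49 in the wild type), where Xist was 12.58 and 12.73. It lay higher on the replicate 3 arrays (10.03 in the knockout, 9.39 in the wild type), where Xist was 6.26 and 6.52. In both genotypes these sex-linked signals followed the replicate number, so the 2 cannot be told apart here. The labels pool both retinae of 1 animal, and how a sample comes to carry both signals cannot be told from the files. The main counts are therefore also given without replicate 2.

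The first comparison asked whether the loss of Meg2 moved ganglion cell genes as a whole. No gene of the list passed the test. None of the 33 genes passed an adjusted p of 0.05 in limma, where 0 of 23410 tested clusters (0%) passed, and none reached an unadjusted p under 0.05, against 803 (3.43%) of all tested clusters. By direction, 0 members were higher, against 1.69% of clusters, and 0 lower, against 1.74%. Differences, knockout minus wild type, ran from -0.14 (Nrn1) to 0.11 (Dlx1) on the log2 scale. Their median was -0.031, beside 0.0012 over all tested clusters. Of the 33 differences 19 were below 0, beside 49.3% of all clusters. The lowest unadjusted p was 0.138 (Elavl2), and every adjusted p was 0.9995 (limma).

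The intervals say how large a change these arrays still allow. Over the 33 genes the 95% intervals of the differences reached no lower than -0.38 (Nrn1) and no higher than 0.34 (Dlx1), which is 0.766 to 1.26 of the wild-type signal. For 19 genes the whole interval lay within 0.25 on the log2 scale on either side of 0. With the replicate number as a block the SE was smaller for all 33 genes, with a median of 0.056 against 0.079 without it. In that fit 0 of 33 genes reached an unadjusted p under 0.05, against 8.81% of all clusters, and 0 passed adjustment, against 0.00427% (limma, lowest adjusted p = 0.578). With the block the unadjusted p was 0.0652 for Elavl2 and 0.0683 for Thy1, against 0.138 and 0.162 without it (limma).

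**Figure D1:**
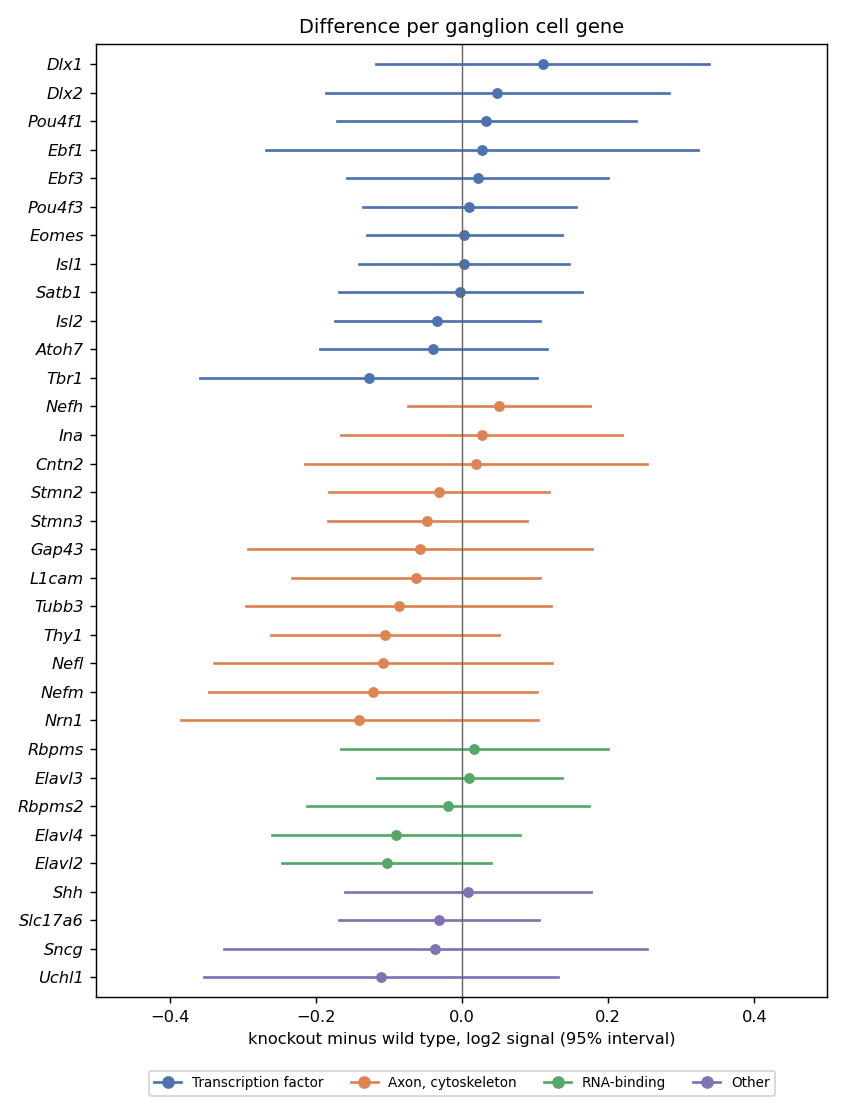
Difference in log2 signal (knockout minus wild type, x axis) for each of the 33 ganglion cell genes, coloured by role; points are limma estimates and lines their 95% intervals. Every interval includes 0, and 9 of 12 axon and cytoskeleton genes lie below 0 against 4 of 12 transcription factors.

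The 12 transcription factors had a median difference close to 0. Pou4f1, which encodes Brn3a, a factor of ganglion cell survival and subtype identity, read 10.17, 10.43 and 10.13 in knockout and 10.13, 10.32 and 10.19 in wild-type retinae. The replicate 2 array was the highest in each genotype, and the genotypes overlapped (difference 0.034, SE 0.090). Pou4f3, which encodes Brn3c and marks a subset of ganglion cells, read 8.46, 8.49 and 8.53 in knockout and 8.44, 8.43 and 8.59 in wild-type retinae. All 6 Pou4f3 values lay close together, with a difference of 0.010 (SE 0.064).

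Isl1, the LIM homeodomain partner of the Brn3 factors, read 10.41, 10.46 and 10.31 in knockout and 10.35, 10.39 and 10.45 in wild-type retinae. Its difference was 0.0023 (SE 0.063), with a 95% interval of -0.14 to 0.15. Atoh7, the proneural factor upstream of both, read 11.95, 12.06 and 11.94 in knockout and 11.98, 11.97 and 12.13 in wild-type retinae. The wild-type replicate 3 array was the highest for Atoh7, and the other 2 wild-type arrays lay within the knockout range (difference -0.040, SE 0.068).

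Tbr1, a T-box factor of particular ganglion cell subtypes, had the lowest difference of the transcription factors. It read 7.49, 7.84 and 7.52 in knockout and 7.63, 7.76 and 7.84 in wild-type retinae (difference -0.13, SE 0.10; limma, unadjusted p = 0.24). Replicates 1 and 3 of the knockout lay below every wild-type array, and replicate 2 did not. Tbr1 was dim (mean signal 7.68), below the median of tested clusters (8.51), as was Pou4f3. The homeobox gene Dlx1, which acts in ganglion cell differentiation with Dlx2, had the highest difference. It read 9.08, 9.42 and 9.09 in knockout and 9.05, 9.19 and 9.02 in wild-type retinae (difference 0.11, SE 0.10; limma, unadjusted p = 0.301). The knockout value was the higher one in 3 of 3 replicate numbers, and most of the difference came from number 2, at 0.23 against 0.03 and 0.07 for numbers 1 and 3.

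The other 6 transcription factors had differences from -0.034 to 0.048. They were Isl2, which takes part in the choice to project to the opposite side of the brain, at -0.034 (SE 0.062), Satb1, a factor of direction-selective ganglion cells, at -0.0026 (SE 0.073), and Eomes (Tbr2), needed by the melanopsin-expressing type, at 0.0029 (SE 0.059). Ebf1 and Ebf3, helix-loop-helix factors of young neurons, stood at 0.028 (SE 0.13) and 0.021 (SE 0.079), and Dlx2 at 0.048 (SE 0.10). Together with Pou4f1, Pou4f3, Isl1, Atoh7, Tbr1 and Dlx1 they gave 8 of 12 transcription factors above 0 and a median of 0.0066, beside 0.0012 over all clusters. The sign of that median was not stable: it was -0.0013 with array weights, -0.045 without knockout replicate 2 and -0.020 without wild-type replicate 1.

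Genes of the axon and its skeleton lay slightly lower in the knockout, without a call. Of 12 genes 9 were below 0, with a median of -0.060, and that median stayed below 0 under every alternative run, from -0.12 to -0.018. The neurofilament light chain gene Nefl read 12.29, 12.58 and 12.16 in knockout and 12.38, 12.50 and 12.47 in wild-type retinae (difference -0.11, SE 0.10). Nefm, the medium chain, read 9.77, 10.15 and 9.87 in knockout and 9.95, 10.08 and 10.11 in wild-type retinae (difference -0.12, SE 0.099). In both genes knockout replicates 1 and 3 lay below all wild-type arrays while knockout replicate 2 was the highest of the 6.

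The heavy chain gene Nefh, which is switched on late as axons mature, was the 1 gene of 33 whose arrays did not overlap between genotypes, beside 8.43% of all tested clusters. It read 8.78, 8.80 and 8.76 in knockout and 8.75, 8.74 and 8.69 in wild-type retinae. The knockout was higher, opposite to Nefl and Nefm, but only by 0.051 (SE 0.055; limma, unadjusted p = 0.375). Gap43, a protein of growing axon tips, read 11.01, 11.37 and 10.99 in knockout and 11.12, 11.27 and 11.16 in wild-type retinae (difference -0.057, SE 0.10). Here too the knockout arrays spanned the wild-type ones. Ina, the neuronal filament protein internexin, differed by 0.027 (SE 0.085), the stathmin genes Stmn2 and Stmn3 by -0.031 (SE 0.066) and -0.047 (SE 0.060), and the neuronal tubulin gene Tubb3 by -0.087 (SE 0.092).

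Among the surface proteins of the axon, Nrn1 (neuritin, a lipid-anchored protein that promotes neurite growth) had the largest difference of the 33 genes. It read 9.35, 9.25 and 9.34 in knockout and 9.28, 9.36 and 9.72 in wild-type retinae (difference -0.14, SE 0.11). The third wild-type array stood apart, and without it the Nrn1 difference was -0.0070. Thy1, a surface glycoprotein long used to mark ganglion cells, read 10.26, 10.46 and 10.41 in knockout and 10.43, 10.53 and 10.49 in wild-type retinae (difference -0.10, SE 0.069; limma, unadjusted p = 0.162). It was lower in the knockout for 3 of 3 replicate numbers, although the genotypes overlapped. The adhesion molecule genes L1cam and Cntn2, both of the immunoglobulin superfamily, differed by -0.063 (SE 0.075) and 0.019 (SE 0.10).

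Of the 5 RNA-binding protein genes 3 lay below 0, with a median of -0.019. Rbpms, found in nearly all ganglion cells of the adult mouse retina, read 11.55, 11.82 and 11.59 in knockout and 11.57, 11.69 and 11.65 in wild-type retinae (difference 0.017, SE 0.080). Its relative Rbpms2 differed by -0.019 (SE 0.085). Of the neuronal Elav genes, which stabilise and splice neuronal messages, Elavl2 read 9.44, 9.32 and 9.42 in knockout and 9.49, 9.43 and 9.56 in wild-type retinae (difference -0.10, SE 0.063). Elavl4 read 9.38, 9.33 and 9.37 in knockout and 9.35, 9.40 and 9.60 in wild-type retinae (difference -0.090, SE 0.075), or -0.015 without the wild-type replicate 3 array. Elavl2 was lower in the knockout for 3 of 3 replicate numbers and Elavl4 for 2. Elavl3 differed by 0.010 (SE 0.056). In all, 4 of 33 genes were lower in the knockout for each replicate number (Isl2, Thy1, Elavl2 and Slc17a6) and 2 were higher (Dlx1 and Nefh), against 15.9% and 16.5% of all tested clusters.

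The remaining 4 genes have other roles, and 3 of them lay below 0, with a median of -0.034. Sncg (gamma-synuclein), abundant in ganglion cell bodies and axons, read 11.51, 11.84 and 11.30 in knockout and 11.49, 11.71 and 11.55 in wild-type retinae (difference -0.036, SE 0.13). Slc17a6, which encodes the vesicular glutamate transporter VGLUT2 that loads ganglion cell synaptic vesicles, read 9.56, 9.62 and 9.66 in knockout and 9.61, 9.62 and 9.70 in wild-type retinae (difference -0.031, SE 0.060). Sncg was among the most variable genes of the list and Slc17a6 among the least variable. Uchl1, a deubiquitinase of neurons, read 11.14, 11.48 and 11.07 in knockout and 11.34, 11.43 and 11.25 in wild-type retinae (difference -0.11, SE 0.11). Shh, the hedgehog ligand that ganglion cells send to progenitors and optic nerve astrocytes, read 8.91, 8.88 and 8.98 in knockout and 8.80, 8.89 and 9.05 in wild-type retinae (difference 0.0083, SE 0.074).

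**Figure D2:**
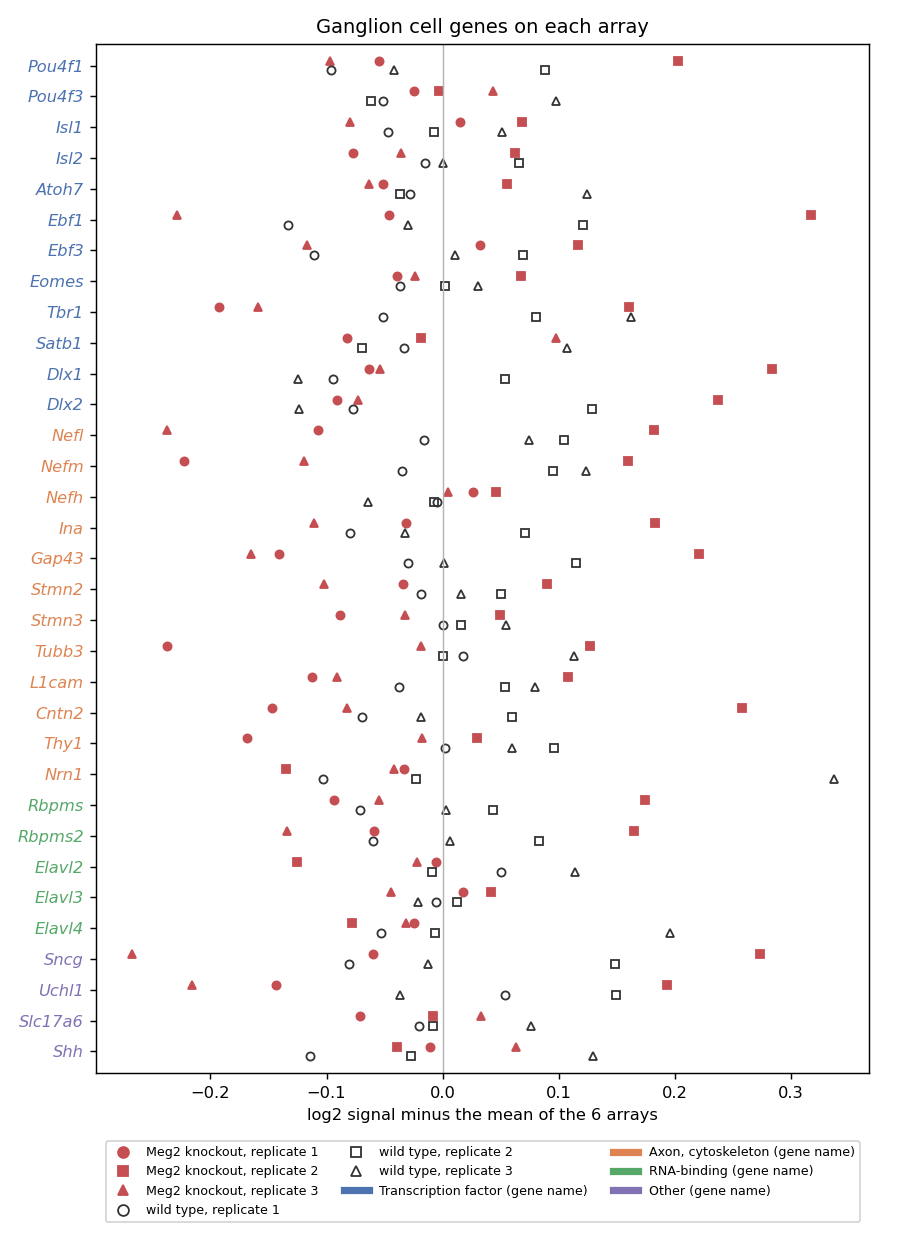
Log2 signal of each ganglion cell gene on each array, as the deviation from the mean of the 6 arrays (x axis); filled red symbols are knockout arrays and open black symbols wild-type arrays, with the replicate number given by the symbol and the role by the colour of the gene name. Knockout replicate 2 (red square) is the rightmost symbol for many genes, and knockout replicates 1 and 3 lie to the left.

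The second comparison set transcription factors against axon and cytoskeleton genes. Averaged over each group and relative to the mean of the 6 arrays, transcription factors stood at -0.056, 0.13 and -0.066 on knockout arrays 1, 2 and 3 and at -0.064, 0.036 and 0.022 on wild-type arrays. Axon and cytoskeleton genes stood at -0.11, 0.11 and -0.085 on knockout arrays and at -0.031, 0.053 and 0.062 on wild-type arrays. The genotypes overlapped in both groups: knockout replicate 2 lay above all wild-type arrays and knockout replicates 1 and 3 below at least 2 of them. On each of the 6 arrays both groups lay on the same side of the 6-array mean. Within arrays, axon and cytoskeleton minus transcription factors was -0.052, -0.019 and -0.019 in knockout and 0.033, 0.017 and 0.040 in wild-type retinae. These values did not overlap. They averaged -0.030 in the knockout, against 0.030 in the wild type, a description of these 6 arrays with no test. By replicate number the difference was -0.085, -0.036 and -0.058. Further lineage genes outside the list, described below, gave a contrast that overlapped between genotypes. Their 22 axon genes averaged -0.059, 0.087 and -0.050 on knockout arrays and -0.037, 0.036 and 0.024 on wild-type arrays. Their 28 transcription factors averaged -0.034, 0.043 and 0.012 on knockout arrays and -0.047, 0.016 and 0.010 on wild-type arrays. On knockout array 2 these axon genes lay above the factors, as on the wild-type arrays.

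Ganglion cell genes varied between arrays of the same genotype. Their median within-genotype SD, pooled over both genotypes, was 0.11, beside 0.089 over all tested clusters and 0.077 over those above the median signal, where 31 of the 33 genes lay. The range ran from 0.028 (Nefh) to 0.22 (Ebf1), and Sncg came next to Ebf1 with 0.21. The SD was larger in the knockout than in the wild type for 26 of 33 genes. This was so for 63.6% of all tested clusters and for 8048 of the 11705 above the median signal. Among the marker lists of other cells it held for 3 of 6 astrocyte genes, 11 of 12 amacrine and horizontal genes and 8 of 8 endothelial genes. By role, the median SD of axon and cytoskeleton genes was 0.14 in knockout and 0.062 in wild-type retinae, and that of transcription factors 0.10 in knockout and 0.092 in wild-type retinae.

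This spread partly followed the replicate number. The replicate 2 array was the highest of its genotype in both genotypes for 17 of 33 genes (51.5%), beside 16.7% of all tested clusters and 24.4% of those above the median signal. Transcription factors (6 of 12), axon and cytoskeleton genes (6 of 12) and RNA-binding genes (3 of 5) all took part. Replicate 2 exceeded the mean of replicates 1 and 3 in both genotypes for 22 of 33 genes, beside 30.3% of all tested clusters and 41.5% of those above the median signal. For Ebf1 it did so by 0.45 in knockout and 0.20 in wild-type retinae, and for Sncg by 0.44 in knockout and 0.19 in wild-type retinae. Dlx2 exceeded it by 0.32 and 0.23, Uchl1 by 0.37 and 0.14, Gap43 by 0.37 and 0.13, and Pou4f1 by 0.28 and 0.16 in the knockout and wild type. The genes that did the opposite in both genotypes were Pou4f3, Satb1, Nrn1, Elavl2, Elavl4 and Shh, with Nrn1 at -0.098 in knockout and -0.14 in wild-type retinae.

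**Figure D3:**
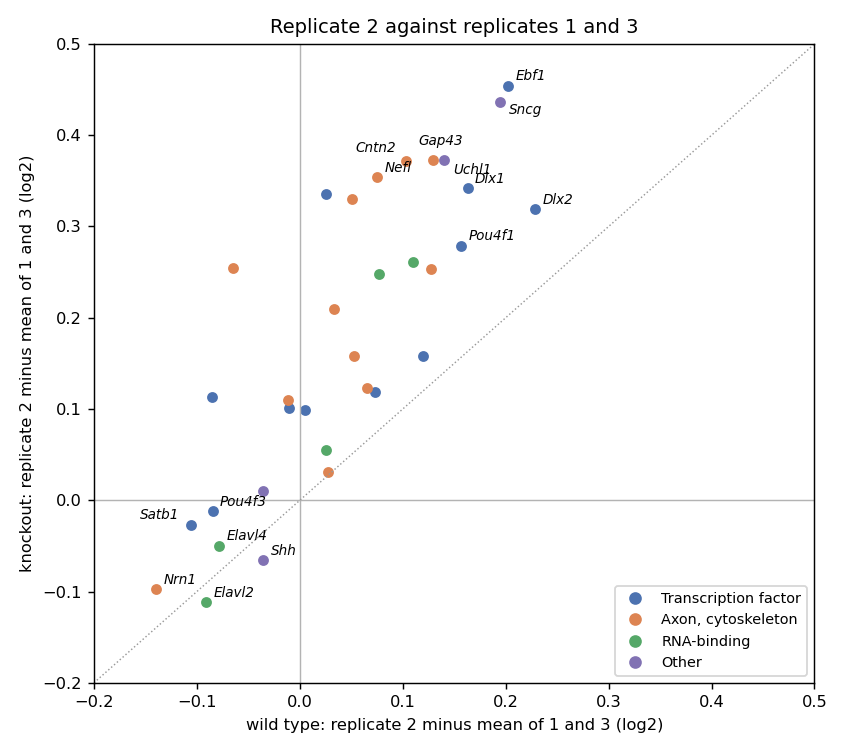
Log2 signal of the replicate 2 array minus the mean of replicates 1 and 3, in the knockout (y axis) and the wild type (x axis), for each of the 33 ganglion cell genes coloured by role; the dotted line marks equal values. For 22 genes both values are above 0 (30.3% of all tested clusters), and Ebf1 (0.45 in the knockout, 0.20 in the wild type) and Sncg (0.44 and 0.19) lie farthest out.

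The size of the genotype difference depended on single arrays. The median over the 33 genes was -0.031 on all arrays. It was -0.0010, -0.074 and -0.0087 without knockout replicate 1, 2 or 3, and -0.049, -0.014 and -0.0012 without wild-type array 1, 2 or 3. The median of axon and cytoskeleton genes was -0.018, -0.12 and -0.025 without knockout replicate 1, 2 or 3, and -0.092, -0.052 and -0.036 without wild-type array 1, 2 or 3. Every one of these medians lay below 0, and those nearest to 0 came without knockout replicate 1. Without knockout replicate 2, 5 of the 33 genes had an unadjusted p under 0.05, all lower in the knockout, beside 5.22% of all tested clusters (2.46% lower). They were Tbr1 (-0.24), Uchl1 (-0.24), Nefm (-0.23), Nefl (-0.23) and Gap43 (-0.18), and none passed adjustment (limma, adjusted p = 0.928 for each). Without replicate 2 of both genotypes the number was 2 of 33, both lower (Tbr1 at -0.23 and Nefm at -0.22; limma, adjusted p = 0.999 for each), beside 3.02% of all tested clusters (1.47% lower). Without any other single array it was 0.

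Markers of other cells moved with these arrays. Photoreceptor genes, 8 of 10 measured, averaged -0.023, -0.11 and 0.18 on knockout arrays 1, 2 and 3 and -0.051, -0.068 and 0.068 on wild-type arrays. They were lowest on replicate 2 in each genotype, where ganglion cell genes averaged 0.10 in knockout and 0.044 in wild-type retinae. Endothelial genes (8 of 8) averaged 0.11, -0.063 and 0.29 in the knockout and -0.043, -0.14 and -0.15 in the wild type. Lens genes (10 of 11) averaged 0.071, -0.047 and 0.20 in the knockout and -0.0061, -0.12 and -0.095 in the wild type. Microglial genes (8 of 8) averaged 0.10, -0.079 and 0.18 in the knockout and -0.057, -0.12 and -0.027 in the wild type. Knockout replicates 1 and 3, which were low in ganglion cell genes (-0.074 and -0.075), were the 2 arrays with the highest endothelial, lens and microglial signal. The part of these cells in the ganglion cell result was not tested.

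Of the endothelial, microglial and lens genes 2 of 8, 1 of 8 and 2 of 10 were above the median signal. Amacrine and horizontal cell genes averaged -0.032, -0.017 and 0.088 on knockout arrays and -0.023, -0.014 and -0.0024 on wild-type arrays. Progenitor genes averaged -0.059, 0.035 and 0.011 on knockout arrays and -0.019, 0.0067 and 0.025 on wild-type arrays. Astrocyte genes averaged 0.049, 0.014 and 0.071 on knockout arrays and 0.033, -0.037 and -0.13 on wild-type arrays, and pigment epithelium genes 0.16, -0.031 and -0.084 on knockout arrays and 0.020, -0.036 and -0.026 on wild-type arrays. Over all tested clusters 1.69% had an unadjusted p under 0.05 with a higher knockout. At that threshold 3 of 8 endothelial genes were higher in the knockout (Cdh5 at 0.54, Emcn at 0.50 and Flt1 at 0.35). So were 3 of 8 microglial genes (C1qb at 0.47, C1qc and C1qa at 0.21 each) and 1 of 10 lens genes (Cryaa, 0.53). The others were 1 of 6 astrocyte genes (Pdgfra, 0.26) and 1 of 9 pigment epithelium genes (Tyr, 0.19). Cryaa read 8.70 on knockout array 3, against 7.70 and 7.78 on knockout arrays 1 and 2. Differences below 0 were found for 1 endothelial gene (Kdr, -0.070) and 2 microglial genes (Itgam, -0.045, and Aif1, -0.0021). The same held for 2 lens genes (Lim2, -0.056, and Gja3, -0.0075), 1 astrocyte gene and 3 pigment epithelium genes. Of 12 amacrine and horizontal, 8 photoreceptor and 10 progenitor genes 0 reached an unadjusted p under 0.05 in either direction. The largest differences there were those of Calb1 (-0.12) and Gad1 (0.11), Rcvrn (-0.23) and Thrb (0.17), and Top2a (-0.063) and Mki67 (-0.058). With the replicate block 8.81% of all tested clusters had an unadjusted p under 0.05 in either direction. Beside that share stood 4 of 8 endothelial, 3 of 8 microglial, 3 of 10 lens and 2 of 8 photoreceptor genes. The other lists held 2 of 9 pigment epithelium, 1 of 6 astrocyte, 1 of 12 amacrine and horizontal, and 0 of 10 progenitor genes. No gene of these lists passed adjustment in either fit (limma).

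**Figure D4:**
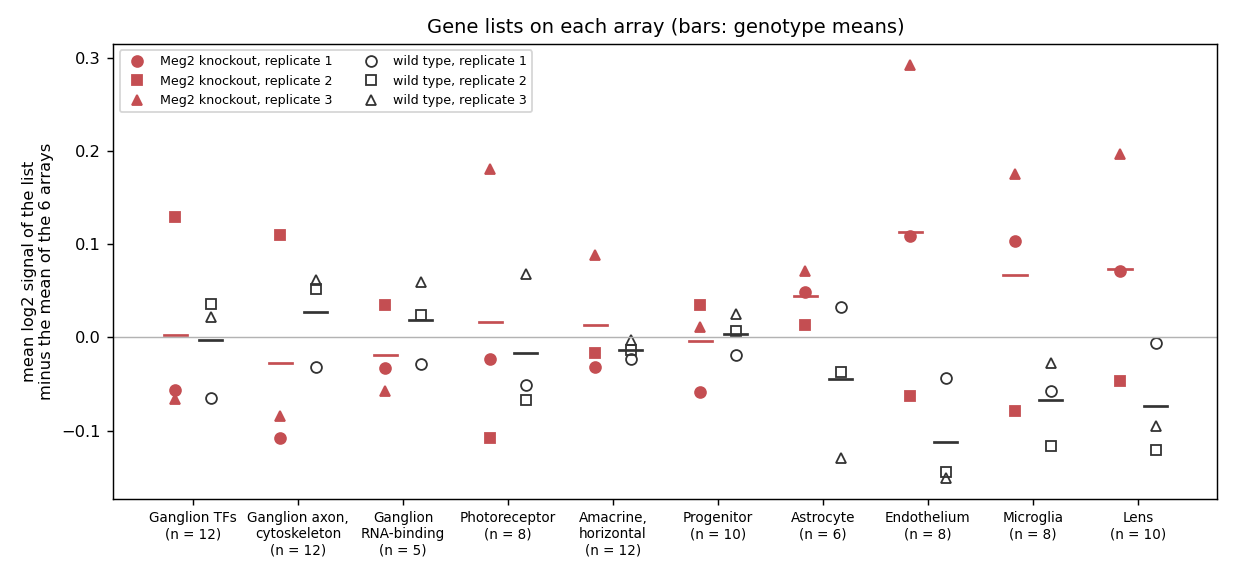
Mean log2 signal of ganglion cell gene groups and of marker lists of other cells on each array, relative to the mean of the 6 arrays (y axis); filled red symbols are knockout arrays, open black symbols wild-type arrays, symbol shape gives the replicate number, bars the genotype means and n the number of genes. Ganglion cell transcription factors (0.13) and axon and cytoskeleton genes (0.11) are highest on knockout replicate 2, where photoreceptor genes are low (-0.11). The RNA-binding genes are at 0.035 there, below wild-type replicate 3 (0.059). Endothelial genes are high on knockout replicate 3 (0.29).

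The third comparison took in other genes of the ganglion cell lineage that were not on the list. Of 28 further lineage transcription factors (29 listed) 18 lay above 0, with a median of 0.013, and 1 (Irx6, lower) had an unadjusted p under 0.05, a share close to the 3.43% of all tested clusters. Irx6, an Iroquois factor also used by bipolar cells, averaged 9.84 ± 0.083 in knockout and 10.05 ± 0.094 in wild-type retinae (SD, n = 3 each). Its difference was -0.22 (SE 0.072; limma, unadjusted p = 0.0152, adjusted p = 0.9995), and its unadjusted p was 0.054 without knockout replicate 2 and 0.0635 without wild-type replicate 3. With the replicate block the unadjusted p of Irx6 was 0.00258 (limma, adjusted p = 0.514). In that fit 8.81% of all tested clusters had an unadjusted p under 0.05. Upstream factors showed smaller differences, with Pax6 at 0.050 (SE 0.057), the proneural gene Neurog2 at 0.039 (SE 0.10) and Sox11 at 0.013 (SE 0.062). Of other factors in this list, Sox4 differed by 0.096 (SE 0.070) and Onecut1 by -0.058 (SE 0.10). Foxp2, a factor of one ganglion cell group, differed by 0.20 (SE 0.087), the largest positive difference of the 4 related lists. Its unadjusted p was 0.0513 without the replicate block and 0.0160 with it (limma, adjusted p = 0.520 with the block).

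Of 22 further axon genes (23 listed) 16 lay below 0, with a median of -0.013, and 0 had an unadjusted p under 0.05. The largest were the stathmin gene Stmn4 at -0.12 (SE 0.069) and the netrin receptor gene Dcc at 0.10 (SE 0.082). For 12 of these 22 genes the replicate 2 array was again the highest in both genotypes. Of 15 nicotinic receptor and subtype genes (16 listed) 8 lay below 0 and 2, both lower, had an unadjusted p under 0.05, beside 1.74% of all tested clusters in that direction. Both encode nicotinic acetylcholine receptor alpha subunits. The beta subunit genes of the list did not share this, with Chrnb2 at 0.060 (SE 0.057) and Chrnb3 at -0.056 (SE 0.080). Chrna6, enriched in ganglion cells, averaged 9.49 ± 0.019 in knockout and 9.64 ± 0.039 in wild-type retinae (difference -0.15, SE 0.055; limma, unadjusted p = 0.0242). Chrna3, a subunit of the receptors behind neonatal retinal waves, averaged 11.73 ± 0.10 in knockout and 11.90 ± 0.021 in wild-type retinae (difference -0.17, SE 0.067; limma, unadjusted p = 0.0339; SD, n = 3 each). Neither passed adjustment (limma, adjusted p = 0.9995 for each). With the replicate block the unadjusted p was 0.0166 for Chrna6 and 0.0228 for Chrna3 (limma, adjusted p = 0.520 and 0.530). The unadjusted p of Chrna6 ran up to 0.0826 and that of Chrna3 up to 0.121 when 1 array was left out. For Chrna6 it exceeded 0.05 without replicate 2 of either genotype and without the third wild-type array, and for Chrna3 without any single array other than knockout replicate 2. The Chrna3 difference was -0.11 without knockout replicate 3. The melanopsin gene Opn4 had the lowest difference of the 15 genes, -0.172 (SE 0.082; limma, unadjusted p = 0.0674), and its arrays overlapped between genotypes.

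Targets and receptors of the hedgehog pathway, through which Shh of ganglion cells acts on progenitors, had 5 of 10 measured genes (11 listed) above 0 and a median of -0.0020. None reached an unadjusted p under 0.05. The most direct readouts, the receptor gene Ptch1 and the effector gene Gli1, differed by 0.025 (SE 0.063) and 0.031 (SE 0.066). The largest differences were those of the co-receptor genes Cdon (-0.13, SE 0.11) and Gas1 (0.12, SE 0.10).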

How the data were processed

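Total RNA of retinae from 3 Meg2 knockout and 3 wild-type newborn mice was hybridised to Affymetrix Mouse Gene 1.0 ST arrays. Deposited values are normalised log2 signals, 1 per transcript cluster and array, which the authors made with Affymetrix Expression Console and RMA, per the submitters' processing notes, which also name Transcriptome Analysis Console. RMA evens out arrays at the level of probes, so a change common to most transcripts may be reduced or lost, although medians of the deposited values still differ slightly. The sources used here give no versions.

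Of 35557 clusters a platform annotation gave 1 symbol to 21789, several to 1621 and none to 12147; 21698 of the single-symbol clusters matched the GRCm38.p6 gene table, which changed 0 symbols. The 23410 clusters with a symbol were tested with limma 3.58.1 (lmFit, eBayes; R 4.3.3) on the deposited values, unfiltered, with Benjamini-Hochberg adjustment over all of them. Differences are knockout minus wild type, with moderated SE and 95% intervals. With 3 arrays per genotype, the smallest p of an exact permutation test is 0.1, so none was run. The fit was tested on simulated data. Tables were made with pandas 2.3.3, figures with matplotlib 3.10.9.

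The replicate numbers come from the sample titles, which do not say what they mark. All 3 same-number correlations of deviations exceeded 0.1, taken as pairing. The SE, intervals and p are nevertheless from the fit without the replicate block, unless the block is named. The members and gene lists (ganglion lineage factors, axon genes, nicotinic and subtype genes, hedgehog genes, and markers of amacrine and horizontal cells, photoreceptors, progenitors, astrocytes, endothelium, microglia, lens and pigment epithelium) were chosen with earlier results of these data known. Array values are given for widely used markers, for non-overlapping genes and for the 2 largest differences per role. Other list genes were named for an unadjusted p under 0.05 or, failing that, as the 2 largest differences. Foxp2, Pax6, Neurog2, Sox11, Sox4, Onecut1, Ptch1, Gli1, Chrnb2, Chrnb3, Opn4, Kdr, Itgam, Aif1, Lim2 and Gja3 were named after their values were seen.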

Additional observations from a re-analysis of the deposited data

How the results depend on the processing

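The fit was repeated with array weights, a variance trend, cyclic loess, median centring, clusters above the median signal, every row of the table, the mean of a gene's clusters, the replicate block and 1 array fewer at a time. Leaving out replicate 2 of both genotypes was chosen after seeing the data. Under these 15 settings no ganglion cell gene passed adjustment (limma, lowest adjusted p = 0.578), and differences lay between -0.24 and 0.17. The count of ganglion cell genes at an unadjusted p under 0.05 was 0 as reported, 2 without replicate 2 of both genotypes, and 0 to 5 with 1 array left out. Their median ran from -0.074 to -0.0010 with 1 array left out. The gap between the medians of axon and cytoskeleton genes and of transcription factors was -0.067, or -0.094 without replicate 2 of both genotypes and -0.076 to -0.043 with 1 array left out. The related lists held 3 genes at an unadjusted p under 0.05, 5 with array weights, 5 without replicate 2 of both genotypes, and 0 to 5 with 1 array left out. Over all named clusters 803 had an unadjusted p under 0.05, against 431 among bright clusters, 1331 over every row, 2063 with the replicate block and 636 to 1298 with 1 array left out. Fewer or more clusters were tested in the bright and every-row settings; the cause of the other changes was not tested. With the replicate block 1 cluster of all passed adjustment and without it 0; it moved no ganglion cell gene to an unadjusted p under 0.05, and the calls it moved in the other lists stand beside them. Dim signal limits Tbr1 and Pou4f3, which lay below the median signal.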
